A study of Mus musculus with 6 samples.

Results

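Cytosolic heat shock chaperones were followed here as 10 genes, Hspa8, Hsph1, Dnaja1, Dnajb1, Bag3, Hsp90aa1, Hsp90ab1, Stip1, Hspb1 and Hspd1, out of 15045 genes measured. They were chosen by name and matched by a single gene symbol in the platform annotation. All 10 had probe sets on the array, 139 in all, and every one of the 139 reached the signal minimum, a group mean of 3 or more on the log2 scale. The label holds for 9 of the genes; Hspd1 encodes the chaperonin of the mitochondrial matrix and is kept because the list names it. The samples were livers of 3 Dhx32-/- mutant mice, homozygous for a mutation of the DEAH-box helicase gene Dhx32, and of 3 control mice labelled wild type, all males of 6 to 8 weeks. Each liver was hybridised to 1 exon array, which carries several probe sets per gene, and each value is a log2 signal. The kind of mutation, the genetic background and any relation between the mice are not stated in these labels, so p-values measure the spread between these 6 livers.

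Chaperones bind unfolded stretches of other proteins and release them in cycles driven by ATP. The HSP70 system consists of the ATPase itself, J-domain proteins that deliver clients and start hydrolysis, and exchange factors that reset it. HSP90 takes over many HSP70 clients through the adaptor Stip1, and small heat shock proteins hold unfolded proteins without ATP. Heat, oxidants and misfolded proteins release the transcription factor HSF1, which binds repeats of a short unit upstream of many of these genes. In liver their transcripts also cycle over the day, in part with body temperature.

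That unit is GAA in alternating orientation, so a pair reads GAANNTTC or TTCNNGAA and a triple reads GAANNTTCNNGAA or TTCNNGAANNTTC. Each pair equals its own reverse complement and the 2 triples are each other's, so both strands were searched. A triple contains 2 overlapping pairs. Windows of 250 bases before and 50 after a gene start, from RefSeq's table for GRCm38.p6, existed for 7 of the 10 genes, and some genes had several starts. A triple stood in 2 of these 7 genes, Hsph1 and Hspd1, against 0.662% of the 27025 genes with a window. A pair stood in 5 of the 7, Hsph1, Dnaja1, Hspb1, Bag3 and Hspd1, against 17.0% of all. Windows of Dnajb1 and Stip1 held neither in these letters. A match describes letters only. The sequences below show the 250 bases before the start for a gene with a dense match (Hspd1), for the gene with the largest mean difference (Hsph1) and for the gene with the smallest p (Dnajb1), with matches in capitals. Hspd1 is shown before its start at the second of 2 listed windows, on the minus strand at chr1:55087933-55088182, with the first capital 144 bases before the start. Hsph1 is on the minus strand at chr5:149636337-149636586, and Dnajb1 is on the plus strand at chr8:83607925-83608174.
Hspd1: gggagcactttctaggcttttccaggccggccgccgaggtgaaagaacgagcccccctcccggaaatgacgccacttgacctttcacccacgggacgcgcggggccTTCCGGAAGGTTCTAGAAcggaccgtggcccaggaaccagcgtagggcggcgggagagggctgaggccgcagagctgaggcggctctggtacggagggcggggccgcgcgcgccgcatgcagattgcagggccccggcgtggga
Hsph1: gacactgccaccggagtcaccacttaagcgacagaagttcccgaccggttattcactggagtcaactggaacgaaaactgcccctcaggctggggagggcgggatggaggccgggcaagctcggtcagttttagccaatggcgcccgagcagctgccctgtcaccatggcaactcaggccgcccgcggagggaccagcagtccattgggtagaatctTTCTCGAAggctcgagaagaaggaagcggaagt
Dnajb1: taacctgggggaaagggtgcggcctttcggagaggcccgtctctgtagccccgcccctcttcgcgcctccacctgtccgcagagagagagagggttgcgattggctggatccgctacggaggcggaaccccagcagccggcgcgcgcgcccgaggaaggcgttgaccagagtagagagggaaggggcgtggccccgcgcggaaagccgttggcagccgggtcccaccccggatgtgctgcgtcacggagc

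The other matches are shown as 30-base sites with the same capitals. The Hsph1 triple begins 36 bases after the gene start at which the Hsph1 sequence above ends (minus strand, chr5:149636287-149636316). It begins 15 bases after the other listed Hsph1 start. The Bag3 pair begins 42 bases after its start (plus strand, chr7:128523603-128523632). The 2 Hspb1 pairs begin 117 and 97 bases before the start (plus strand, chr5:135887801-135887830), and the Dnaja1 pair begins 124 bases before the first of its starts (plus strand, chr4:40722333-40722362).
Hsph1 site: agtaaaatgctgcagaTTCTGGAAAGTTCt
Bag3 site: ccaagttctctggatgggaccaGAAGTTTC
Hspb1 site: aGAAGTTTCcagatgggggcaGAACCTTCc
Dnaja1 site: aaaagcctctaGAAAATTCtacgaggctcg

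Before the members, the arrays were checked. Dhx32 read 6.35, 6.60 and 7.04 in the mutants, against 8.28, 8.85 and 8.62 in the controls, a difference of -1.92 (SE 0.23; limma, adjusted p = 0.183) in the direction of the labels. Array medians lay between 6.73 and 6.96. Mutant replicate 1 stood apart from the other arrays, with correlations of 0.935 to 0.940 to them, while the other 5 correlated with each other by up to 0.973. Differences of the members, and counts of higher or lower means over whole lists, are therefore also given without it. Markers of hepatocytes were bright on every array (Alb, Apoa1 and Ttr at 13.1 or more). In bulk liver, fewer cells of a type and less RNA per cell cannot be told apart.

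Of the 10 genes, 8 had a higher mean in mutant livers and 2 a lower one, against 47.5% of all genes with a higher mean. The median difference was 0.18 on the log2 scale, against -0.01 over all 15045 genes. Without mutant replicate 1 it was 0.0874, against 0.02 over all genes, with 8 of 10 higher, against 54.2% of all genes. None of the 10 passed limma's test at an adjusted p of 0.05 (smallest adjusted p = 0.943), where 0.00665% of all genes passed. At an unadjusted p under 0.05 there were 2, Dnajb1 and Hsph1, against 4.21% of all genes, and against 2.01% with the mutants higher. In 3 genes, Hsph1, Dnajb1 and Bag3, every mutant lay above every control, where 5.15% of all genes did so. Without mutant replicate 1 the same 3 genes separated, and so did 10.2% of all genes. With all arrays the groups overlapped in the other 7, and in none did all mutants lie below the controls (4.32% of all genes). The members were picked with earlier results known, so these shares describe the list only. With 3 livers per group an exact permutation test cannot give a two-sided p below 0.1.

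**Figure D1:**
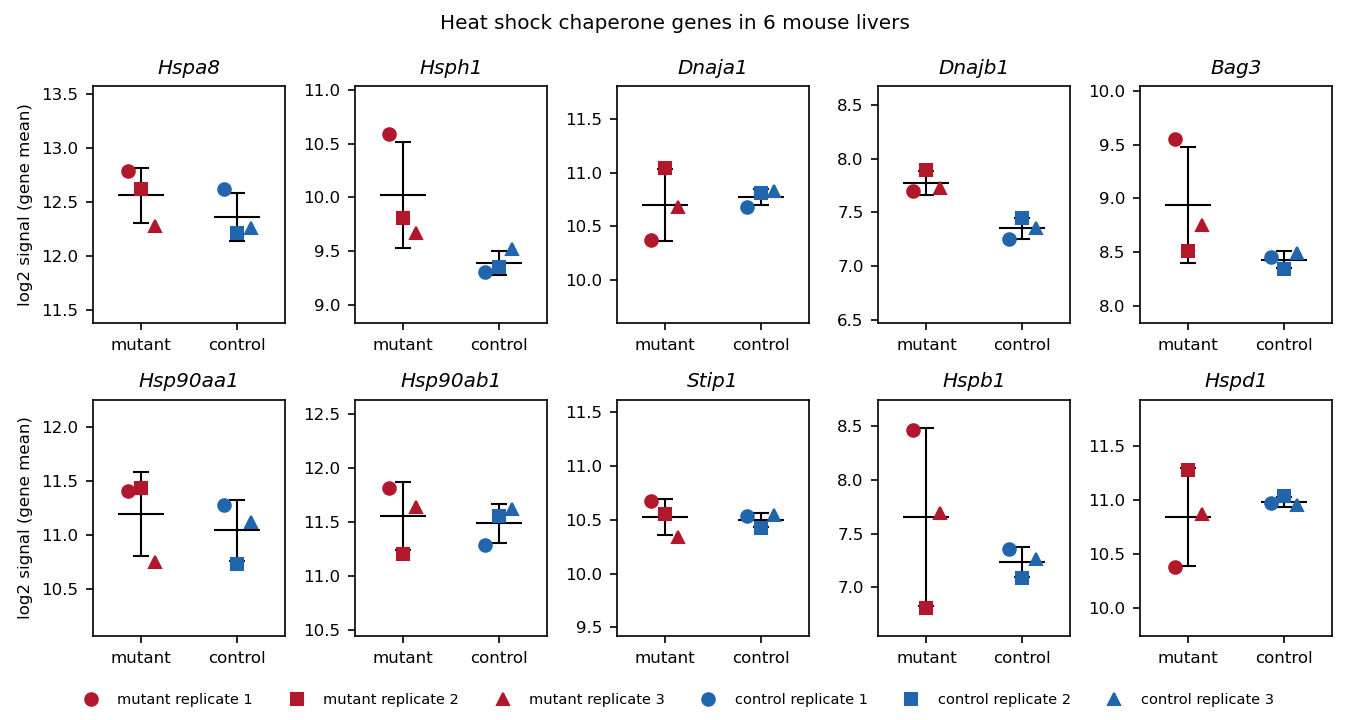
Gene means of log2 signal in each liver for the 10 heat shock genes, mutants left and controls right; symbols mark replicates, horizontal bars the mean and whiskers the SD (n = 3), and every panel spans the same range. Mutants of Hsph1, Dnajb1 and Bag3 lie above all controls, and mutant replicate 1 is the highest array in 6 of the 10 panels.

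Within the HSP70 system the difference was largest for Hsph1, which encodes HSP110, an exchange factor that also works in breaking up aggregates. Hsph1 read 10.59, 9.81 and 9.67 in mutant replicates 1, 2 and 3, against 9.31, 9.36 and 9.52 in the controls. The groups did not overlap, but the step between mutant replicate 1 and the other mutants was larger than the step between those mutants and the controls. The difference was 0.63 (SE 0.24), or 1.55-fold (limma, adjusted p = 0.943, unadjusted p = 0.0316). Without mutant replicate 1 it was 0.35, or 1.27-fold.

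Dnajb1, the J-domain protein that starts HSP70 cycles on stress-damaged clients, had the smallest p of the list. Its values were 7.70, 7.90 and 7.72 in mutants, against 7.25, 7.44 and 7.36 in controls. The difference of 0.42 (SE 0.15), or 1.34-fold, did not pass over all genes (limma, adjusted p = 0.943, unadjusted p = 0.0192). Here the 3 mutants lay close together (SD 0.11, against 0.10 in controls), and no single liver set the size: leaving out each array in turn gave 0.36 to 0.47, and 0.46 without mutant replicate 1.

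Bag3, which links HSP70 to small heat shock proteins and to selective autophagy, read 9.55, 8.51 and 8.76 in mutants, against 8.46, 8.34 and 8.50 in controls. Mutant replicate 2 lay only just above the highest control. The difference was 0.51 (SE 0.26; limma, adjusted p = 0.943), and it was 0.20, or 1.15-fold against 1.42-fold with all arrays, when mutant replicate 1 was left out. In Bag3 and Hsph1 mutant replicate 1 was the highest array, whereas in Dnajb1 it was the lowest of the mutants.

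The constitutive HSP70 gene Hspa8, the main HSP70 of unstressed cells, had 12.79, 12.62 and 12.28 in mutants, against 12.62, 12.21 and 12.26 in controls. Control replicate 1 matched mutant replicate 2, and mutant replicate 3 lay just above the remaining controls. The difference was 0.20 (95% interval -0.24 to 0.64), and it was 0.0887 without mutant replicate 1 and 0.34 without mutant replicate 3. Dnaja1, a farnesylated J-domain partner of Hspa8, ran otherwise, with 10.38, 11.04 and 10.68 in mutants, against 10.68, 10.81 and 10.83 in controls. Mutant replicate 1 was the lowest and mutant replicate 2 the highest array. The difference was -0.07 (95% interval -0.52 to 0.37), and its sign changed without mutant replicate 1 (0.09).

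HSP90 genes were close in both groups. Hsp90aa1, the stress-inducible HSP90, read 11.40, 11.43 and 10.75 in mutants, against 11.28, 10.73 and 11.12 in controls, a difference of 0.15 (95% interval -0.39 to 0.69), or 0.0476 without mutant replicate 1. Mutant replicates 1 and 2 and control replicate 1 were the 3 highest arrays, as they were for Hspa8. Hsp90ab1, the constitutive HSP90, read 11.82, 11.20 and 11.64 in mutants, against 11.28, 11.56 and 11.62 in controls, and differed by 0.07 (95% interval -0.39 to 0.52), or by -0.0653 without mutant replicate 1. For Hsp90ab1 mutant replicate 2 and control replicate 1 were instead the 2 lowest arrays. Stip1, the adaptor that holds HSP70 and HSP90 together, gave 10.67, 10.56 and 10.34 in mutants, against 10.53, 10.42 and 10.54 in controls. Its difference was 0.03 (-0.0483 without mutant replicate 1), and the 95% interval of -0.32 to 0.37 leaves out changes as large as the mean difference of Dnajb1.

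Hspb1, the small heat shock protein HSP25 of the mouse, varied most. It read 8.46, 6.81 and 7.69 in mutants, against 7.36, 7.09 and 7.27 in controls. The mutants held both the highest and the lowest liver of the 6, with an SD of 0.83, against 0.14 in controls. The mean difference of 0.42 (95% interval -0.42 to 1.25) was 0.01 without mutant replicate 1 and 0.84 without mutant replicate 2. Hspd1, which folds proteins imported into mitochondria, read 10.37, 11.28 and 10.87 in mutants, against 10.97, 11.04 and 10.95 in controls. Its mutants ran opposite to those of Hspb1, with mutant replicate 1 lowest and mutant replicate 2 highest, and the difference was -0.14 (95% interval -0.67 to 0.38; 0.09 without mutant replicate 1). RefSeq names 5 pseudogenes after Hspd1 and 1 after Dnaja1, and whether probe sets read such copies was not tested.

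**Figure D2:**
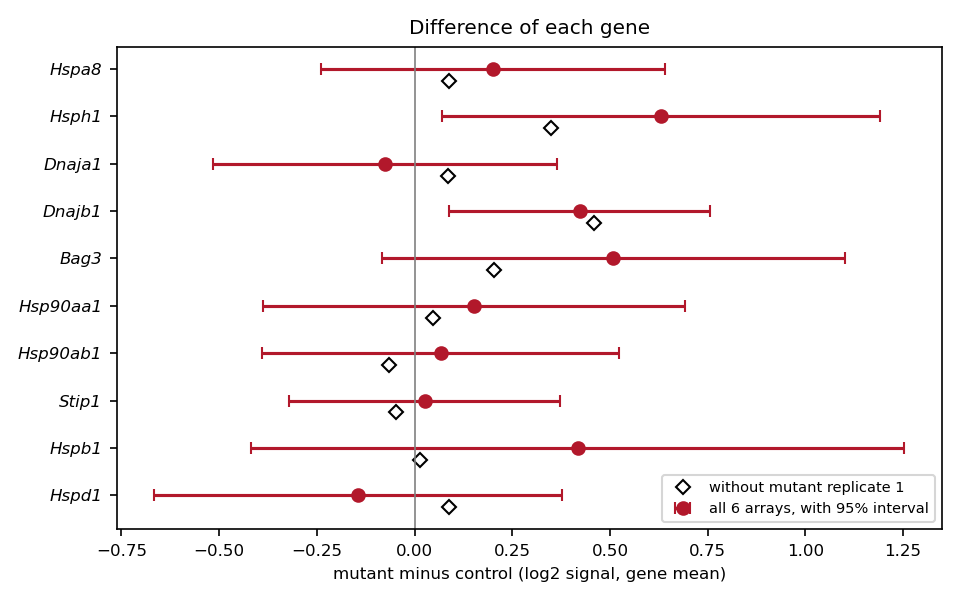
Difference of each gene, mutant minus control, in log2 signal of the gene mean; filled circles with bars give all 6 arrays with the 95% interval of limma, open diamonds the value without mutant replicate 1. Intervals of Hsph1 and Dnajb1 lie above 0 before adjustment for 15045 genes, and without mutant replicate 1 the value of Hsph1 is 0.35 and that of Dnajb1 is 0.46.

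The members were more scattered among mutants than among controls. The SD over the 3 mutants ran from 0.11 (Dnajb1) to 0.83 (Hspb1), and that over the 3 controls from 0.05 (Hspd1) to 0.28 (Hsp90aa1). In 10 of 10 genes the mutant SD was the larger, as in 65.9% of all genes. Without mutant replicate 1 it was so in 9 of the 10, against 49.6% of all genes. Averaged over the 10 genes, the deviation from the control mean was 0.42, 0.16 and 0.08 in mutant replicates 1, 2 and 3, while the controls lay between -0.06 and 0.04. Mutant replicate 1 was the highest array in 6 genes and the lowest in 2. Mutant replicate 2 was the highest in the other 4 genes, and mutant replicate 3 in none.

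Single probe sets were compared as well. Of the 139 probe sets 104 had a higher mean in mutants, or 74.8%, against 46.8% of the 191663 probe sets kept. In 9 of them every mutant lay above every control, as in 4.01% of all, and in 0 every mutant lay below, as in 4.44% of all. Leaving out mutant replicate 1, 97 of the 139 had a higher mean, or 69.8%, against 51.4% of all. The share in which the remaining mutants lay above every control was then 7.91%, against 8.65% of all, so it was no longer above the background. Probe sets of a gene share their livers and are not separate comparisons. None passed limma's test over all probe sets (0% of all passed; smallest adjusted p = 0.994), and 2 had an unadjusted p under 0.05, against 4.07% of all.

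All 19 probe sets of Hsph1 were higher in mutants, by 0.35 to 1.03, and 6 of the 9 without overlap were its own. Probe set 4543983 of Hsph1 had the smallest p, with 9.99, 10.09 and 9.60 in mutants, against 8.93, 8.92 and 9.13 in controls, a difference of 0.90 (SE 0.26; limma, unadjusted p = 0.00766). In that probe set mutant replicate 1 did not lead, unlike in the gene mean. The largest difference within Hsph1, 1.03 in probe set 4981275, came with overlap, since control replicate 1 read 8.11 and mutant replicates 1 and 3 read 7.72 and 8.11. At the low end probe set 5124818 differed by 0.35.

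All 5 probe sets of Dnajb1 were higher in mutants (0.04 to 0.62), as were all 7 of Hspa8 (0.06 to 0.41) and all 7 of Hspb1 (0.11 to 0.61). Counts per gene include mutant replicate 1, without which the gene difference of Hspb1 was 0.01. In Dnajb1 probe set 5575870 the mutants read 8.04, 8.24 and 8.15 and the controls 6.93, 7.65 and 7.98. Bag3 had 9 of 10 higher (-0.04 to 1.12). Its probe set 5502189 read 11.07, 9.54 and 9.53 in mutants, against 9.39, 8.90 and 8.49 in controls, the largest difference of any member probe set that was higher in mutants (1.12, SE 0.46; limma, unadjusted p = 0.0405).

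In the HSP90 genes 26 of 33 probe sets of Hsp90aa1 (-0.26 to 0.50) and 12 of 16 of Hsp90ab1 (-0.36 to 0.46) were higher in mutants. Stip1 split 7 higher to 5 lower (-0.16 to 0.16). Dnaja1 had 7 higher and 10 lower (-0.44 to 0.15) and Hspd1 5 higher and 8 lower (-1.26 to 0.21). The low value of Hspd1 came from probe set 5424821, which read 3.68, 4.91 and 6.60 in mutants, against 4.76, 7.09 and 7.13 in controls. The next lowest Hspd1 probe set differed by -0.30, so this dim probe set weighs on the gene difference of -0.14. Taking the median level over probe sets on each array, in place of the mean, gave Hspd1 a difference of 0.24, the other sign. That is above the difference of every single Hspd1 probe set (0.21 at most), so it does not describe a typical one.

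**Figure D3:**
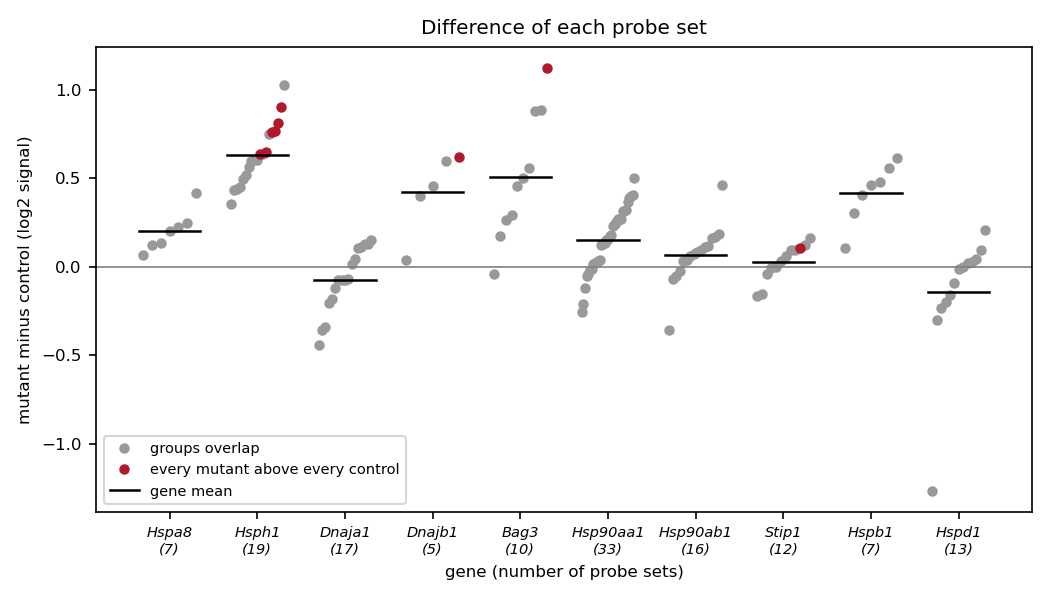
Difference of each of the 139 probe sets, mutant minus control in log2 signal, sorted within each gene, with the gene mean as a line; red points are probe sets in which every mutant lay above every control. All 19 points of Hsph1 lie above 0, and 1 point of Hspd1 lies at -1.26.

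Exon usage, in which a probe set is set against the other probe sets of its gene, did not pass for any of the 10 genes. The F-test of limma's diffSplice gave each an adjusted p = 1, and 0 of the 10 had an unadjusted p under 0.05, where 0.21% and 4% of 14310 genes did. Bag3 had the smallest unadjusted p (0.666). The number called was also 0 of 10 without mutant replicate 1. Within a gene the arrays still differed in how evenly the probe sets moved. Over all genes with 5 or more probe sets, the median SD of the probe sets' deviations was 0.49 in mutant replicate 1, between 0.32 and 0.34 in the other mutants and between 0.32 and 0.33 in the controls. In Dnaja1 this SD was 0.49 in mutant replicate 1, where single probe sets deviated from their mean over 6 arrays by -1.33 to 0.29, and 0.11 to 0.28 on the other arrays. Mutant replicate 1 was the most uneven array in 7 of the 10 genes. The exceptions were Hspa8 (0.14, against 0.37 in mutant replicate 3), Hsph1 (0.33, against 0.35 in control replicate 3) and Hspb1 (0.74, against 0.76 in mutant replicate 2). The part of this unevenness in the gene means was not tested.

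The rest of the heat shock network was read from 7 lists of 81 genes that hold none of the 10 members. Of 74 measured genes, 33 had a higher mean in mutants and 41 a lower one, with a median difference of -0.03. Over all genes 47.5% had a higher mean, with a median of -0.01. Without mutant replicate 1, 42 were higher and 32 lower, or 56.8% higher, against 54.2% of all genes. The median was then 0.03, against 0.02 over all genes, so the balance turned as it did over all genes. None passed over all genes in limma, and 1 had an unadjusted p under 0.05 (1.35%, against 4.21% of all genes). Every mutant lay above every control in 2 of the 74, Chordc1 and Clpp (2.7%, against 5.15% of all genes). Every mutant lay below in 3, Dnajc7, St13 and Bag1, where 4.32% of all genes did so.

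Hsf1, the heat shock transcription factor itself, differed by 0.10 (SE 0.19), Hsf2 by -0.45 (SE 0.34) and Hsf4 by -0.14 (SE 0.16). Of the 8 other HSP70 and HSP110 genes 4 were higher and 4 lower, or 6 and 2 without mutant replicate 1. The strongly heat-inducible Hspa1a was dim, with 5.09, 5.17 and 5.21 in mutants, against 5.43, 4.87 and 4.16 in controls, and the groups overlapped. Hspa13, an HSP70 of microsomes, differed by 0.33 (SE 0.16), and Hspa4l, an HSP110 gene like Hsph1, by -0.08 (SE 0.16).

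Co-chaperones and chaperonins were spread around 0 as well. Of 20 other HSP70 and HSP90 co-chaperones 7 were higher and 13 lower (median -0.05), or 9 and 11 without mutant replicate 1. Chordc1, an HSP90 partner, read 8.17, 8.55 and 8.31 in mutants, against 7.97, 7.83 and 8.05 in controls, a difference of 0.39 (SE 0.16; limma, adjusted p = 0.943, unadjusted p = 0.0397). Its window is 1 of 3 among the 57 of these genes with a window that hold the triple, next to Dnajb6 and Hspe1. St13, an adaptor that slows the release of HSP70 clients, differed by -0.29 (SE 0.16), and Bag1, an exchange factor of the Bag3 family, by -0.27 (SE 0.16).

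Of 12 other cytosolic J-domain genes 5 were higher and 7 lower (median -0.07), or 7 and 5 without mutant replicate 1. Dnajc7 differed by -0.37 (SE 0.17), Dnajb4 by 0.37 (SE 0.21) and Dnajc2 by -0.23 (SE 0.15). Of 6 other small heat shock genes 4 were higher (median 0.13), and also 4 without mutant replicate 1. Hspb8, the small heat shock protein that binds Bag3, read 12.14, 10.82 and 11.38 in mutants, against 10.62, 11.05 and 11.34 in controls, with mutant replicate 1 on top as for Bag3 and Hspb1. Of 12 subunits of the chaperonin TRiC and of prefoldin 7 were higher and 5 lower (median 0.03), with the same counts without mutant replicate 1. Of 12 other mitochondrial chaperones and proteases 5 were higher and 7 lower (median -0.02; 9 higher without mutant replicate 1, median 0.08), and Hspe1, the lid of the Hspd1 barrel, differed by -0.24 (SE 0.27).

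Chaperones of the endoplasmic reticulum, which are induced mainly by the unfolded protein response, stood higher on the same arrays. All 14 measured had a higher mean in mutants (median 0.54), against 47.5% of all genes. In 8 every mutant lay above every control, where 5.15% of all genes did so. As with the members, 0 of 14 passed over all genes in limma (smallest adjusted p = 0.609, for Derl3). Derl3, which helps to export misfolded proteins for degradation, read 8.98, 8.13 and 8.87 in mutants, against 7.61, 7.11 and 7.06 in controls, a difference of 1.40 (SE 0.26). Dnajb9, a J-domain protein of the same compartment, differed by 1.01 (SE 0.23). Their mean deviated from that of the controls by 0.88, 0.69 and 0.43 in mutant replicates 1, 2 and 3, against -0.12 to 0.21 in the controls. All 14 were also higher in mean when mutant replicate 1 was left out, with a median of 0.44. The difference between these 14 genes and the 10 members was not tested.

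Other gene groups also differed between the arrays. Acute phase genes, which the liver secretes in inflammation, deviated on average by 1.81, 0.74 and 0.45 in mutant replicates 1, 2 and 3, against -0.09 to 0.05 in controls (16 of 16 measured genes higher, and 13 of 16 without mutant replicate 1). Lcn2 read 13.57, 11.19 and 10.14 in mutants, against 6.88, 7.11 and 7.93 in controls, and Saa3 read 12.89, 10.37 and 8.14, against 7.28, 7.20 and 7.05. Mutant replicate 1, highest for Lcn2 and Saa3, was also highest for 6 of the 10 members, Hspa8, Hsph1, Bag3, Hsp90ab1, Stip1 and Hspb1. For Dnajb1 it was the lowest of the mutants. Neutrophil markers, Lcn2 among them, averaged 6.62, 5.78 and 5.50 in mutants, against 5.12 to 5.42 in controls. A higher mean was seen in 7 of 10, and in 5 of 10 without mutant replicate 1. Without Lcn2 the other 9 averaged 5.85, 5.18 and 4.99 in mutants, against 4.90 to 5.14 in controls, so mutant replicate 3 lay within the controls. Of these 9, 6 had a higher mean and 3, Camp, Mpo and Cxcr2, a lower one. Macrophage markers averaged 8.72 in mutant replicate 1, 7.87 and 7.88 in the other mutants and 7.86 to 8.26 in controls. Their mean was higher in 7 of 12, but without mutant replicate 1 it was higher in 1 and lower in 11. Stellate cell markers deviated from the control mean by -0.68, -0.31 and 0.06 in mutant replicates 1, 2 and 3, against -0.14 to 0.12 in controls. Lower were 7 of 9, and 5 of 9 without mutant replicate 1. Bile duct markers deviated by 0.66, -0.11 and 0.24 (4 of 5 higher, and 3 without mutant replicate 1), against -0.09 to 0.11 in controls. Adipocyte markers deviated by 0.22, 0.39 and 0.57, against -0.11 to 0.07 in controls, an array order opposite to that of the members' mean. Higher were 9 of 10, and 8 of 10 without mutant replicate 1. Hepatocyte markers averaged 12.85 to 13.06 in mutants, against 12.86 to 12.95 in controls. The part of these groups in the members' differences was not tested.

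Clock output followed another split. Dbp read 6.90, 6.91 and 8.74 in mutants, against 7.29, 8.93 and 8.71 in controls, and Nr1d1 read 7.30, 8.14 and 10.50 in mutants, against 9.13, 10.91 and 10.66 in controls. The 3 arrays low in both, mutant replicates 1 and 2 and control replicate 1, were the 3 highest arrays for Hspa8 and Hsp90aa1. They were so for no other member, and for Hsp90ab1 mutant replicate 2 and control replicate 1 were the lowest arrays. The labels used here give no sampling time. Cirbp, an RNA-binding gene induced by mild cold, read 6.53, 7.46 and 7.44 in mutants, against 7.33, 7.98 and 6.78 in controls, and Rbm3, its relative, 8.28, 9.13 and 9.36, against 8.65, 8.86 and 8.49. Neither separated the groups. Per2 (6.57 to 6.89 in mutants, against 6.70 to 6.88 in controls) and Fos (5.66 to 5.82, against 5.69 to 5.79) overlapped too. The part of the clock in the members' values was not tested.

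**Figure D4:**
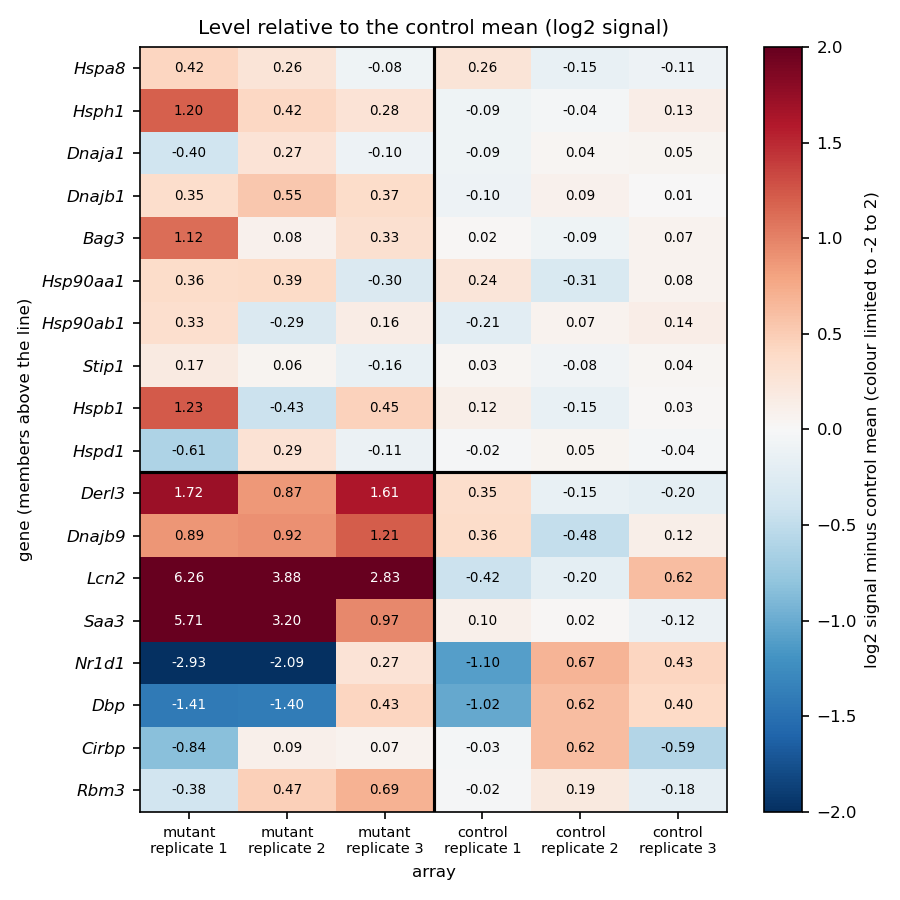
Level of each gene on each array relative to its control mean, in log2 signal, with the 10 heat shock genes above the line and, below it, Derl3, Dnajb9, Lcn2, Saa3, Nr1d1, Dbp, Cirbp and Rbm3; colours stop at -2 and 2 and the printed values do not. Mutant replicate 1 is the highest array for Hspa8, Hsph1, Bag3, Hsp90ab1, Stip1 and Hspb1, and below the line for Derl3, Lcn2 and Saa3. Of the 10 genes only Hspa8 and Hsp90aa1 are highest on the 3 arrays on which Nr1d1 and Dbp are low.

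Outside the chaperone lists, the genes whose 6 values ran most like the mean of the 10 members were Usp17lb (Pearson r = 0.994 over 6 arrays), Cntnap2 (0.993), Fgl1 (0.991), Rims2 (0.991) and Ngp (0.990). They top a ranking, on 6 arrays, of those among the 15045 genes that lie outside these lists. In each of them mutant replicate 1 was the highest. Fgl1 read 11.94, 10.61 and 10.14 in mutants, against 9.41, 9.18 and 9.61 in controls, while the other 4 were dim, with a highest value of 5.11.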

How the data were processed

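The authors deposited log2 signals, 1 per probe set (204531) and array (6). Per the submitters' processing notes, which give no roles, Affymetrix Expression Console 1.1, RMA, Partek 6.4 and mm9 were used. RMA equalises arrays by quantiles and compresses differences of dim probe sets. Probe sets with a group mean of 3 or more were kept (191663); genes with at least 2 probe sets of 1 symbol took their average. Groups were compared, mutant minus control, with limma 3.58.1 in R 4.3.3 (lmFit, eBayes, Benjamini-Hochberg over all genes or probe sets, threshold 0.05), and exon usage with diffSplice in genes with 3 or more probe sets. Tested on simulated data, both steps also called some unchanged genes, 8 in the gene step and 135 in the exon usage test. The gene step recovered few genes with shifts near the size of the members' differences. Exon usage recovered 2.99% of genes in which 1 probe set was shifted by 1 on the log2 scale, and 41.8% for a shift of 2.

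Members and lists were chosen with earlier results of these data known. Named were the 10 members, their probe sets of largest rise, largest fall and smallest p, up to 3 genes of smallest p per other list, 5 genes of most similar pattern and 8 fixed genes of clock, cold, early and acute phase response; Hspe1, Camp, Mpo and Cxcr2 were added after their values were seen, and Alb, Apoa1 and Ttr checked the tissue. Alternatives were other signal minimums, normalizations, variance models and probe set summaries, a replicate block and leaving out each array. Arrays carry no read depth; their number limits precision.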

Additional observations from a re-analysis of the deposited data

How the results depend on the processing

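No alternative brought a member past the threshold: 0 of 10 genes, 0 of 139 probe sets or those left under another minimum, and 0 of 10 for exon usage were called under each one run (smallest adjusted p = 0.531 for genes in limma with array weights, 0.768 for probe sets, 0.906 for exon usage with the Simes test). The replicate block, on numbers that did not pair the livers (correlations of deviations 0.0981, -0.1079 and 0.1758), left 0 members called and took the calls over all genes to 0, against 1 without it; at an unadjusted p under 0.05 it gave 893 genes, against 633. The median difference of the members, 0.18, ran from 0.0874 to 0.36 when 1 array was left out (0.0874 without mutant replicate 1, 0.11 without control replicate 2, 0.30 without control replicate 1, 0.36 without mutant replicate 3). The number of members with every mutant above every control, 3, was 2 with the median over probe sets (4.55% of all genes), where Hsph1 no longer separated. It was 3 to 5 when 1 array was left out, where fewer arrays make separation easier (7.66% to 13.7% of all genes). It was 5 without mutant replicate 2 (13.7%), 5 without mutant replicate 3 (10.5%) and 3 without mutant replicate 1 (10.4%). The signal minimum was applied anew for these shares, whereas the 10.2% given earlier is over the 15045 genes kept with all arrays. These separation counts, and the list and probe set counts without mutant replicate 1, were added after seeing the data. Of 140 recomputed member differences 11 changed sign, in Dnaja1, Hsp90aa1, Hsp90ab1, Hspd1 and Stip1. The other 5 genes (Hspa8, Hsph1, Dnajb1, Bag3 and Hspb1) never did. Some of the 140 could not change. A variance trend and the replicate block leave a difference as it is, and dropping the signal minimum kept the same member probe sets. With array weights Dnaja1 was 0.0635, Hsp90ab1 -0.13, Hspd1 0.0589, Hspb1 0.0513 (against 0.42) and Bag3 0.30 (against 0.51). With the median over probe sets on each array Hspd1 was 0.24, more than any of its single probe sets gave. Leaving out 1 array gave ranges of -0.25 to 0.0861 for Dnaja1, -0.00409 to 0.38 for Hsp90aa1, -0.0653 to 0.24 for Hsp90ab1, -0.36 to 0.0891 for Hspd1, -0.0483 to 0.12 for Stip1, 0.0887 to 0.34 for Hspa8, 0.0129 to 0.84 for Hspb1, 0.20 to 0.72 for Bag3 and 0.35 to 0.81 for Hsph1. Over all genes 0 to 3 were called, against 1 as reported; over all probe sets 0 to 7, against 0; and for exon usage 13 to 58, or 130 with the Simes test, against 30. The causes were not tested.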
